A study of Bos taurus with 6 samples.

Results

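Small GTPases of the Rab, ARF and ARF-like (ARL) families, syntaxins, vesicle-associated membrane proteins (VAMPs) and sorting nexins direct traffic between the membrane compartments of a cell, and their transcripts were compared in blood cells of heifers after and before severe cold. A gene entered the list if its annotated symbol began with RAB, ARL, STX, VAMP or SNX followed by a digit, or was ARF1 to ARF6, so membership did not depend on measured values. The rule found 73 genes among 6337 genes that the array names with a single symbol. Of these, 29 encode Rab GTPases, 5 ARF proteins, 7 ARL proteins or their partners, 9 syntaxins, 5 VAMPs and 14 sorting nexins. The other 4 genes, RAB3IP, RAB3GAP1, RAB11FIP2 and RAB11FIP5, carry Rab symbols but encode proteins that activate, regulate or bind Rab GTPases. Likewise ARL6IP1, ARL6IP5 and ARL14EP, counted with the ARL genes, are named for binding an ARL protein and are not GTPases. Each gene was read from its probe set with the highest mean over the arrays, and 11 of the 73 had more than 1 probe set. A further 3 probe sets, whose annotation joins RAB9A or RAB33A with another gene, were left out.

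The samples were RNA of white blood cells from female heifers of the Sanhe breed, hybridised to an Affymetrix bovine array. There were 3 arrays after cold, labelled 1, 2 and 3, and 3 arrays before it, labelled 4, 5 and 6. The animals stood outdoors at -32 °C for 3 hours and then in a cowshed at 5 °C for 15 hours, and the time of the later blood sample within this sequence is not given in the sources used here. All 6 samples came from 3 animals of 30, each sampled at both times, but the labels do not say which arrays share an animal, so the p-values below treat the arrays as separate. Values are log2 intensities, on which 1 unit is a 2-fold difference. Levels of different genes cannot be compared on this scale, because each probe set binds its target with its own strength.

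Rab and ARF proteins are molecular switches. They sit on a membrane in the GTP-bound state, recruit coats, motors and tethers there, and leave it after GTP is hydrolysed. Syntaxins and VAMPs are SNARE proteins, whose helices on a vesicle and its target wind together and draw the membranes into fusion. Sorting nexins bind phosphoinositides on endosomes and sort cargo for return to the surface or the Golgi. White blood cells depend on this machinery to release granules, to carry surface receptors back to the membrane and to bring engulfed material to lysosomes. The roles given below are those known mainly from human, mouse and yeast proteins.

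None of the trafficking genes differed past the threshold of the test between the blood samples of the 2 times. With limma, a linear model with moderated variance fitted over all 12763 probe sets, 0 of the 73 genes had an adjusted p under 0.05, and the share over all probe sets was 0%. At an unadjusted p under 0.05 there were also 0 of the 73, against 0.537% of the 6337 genes. The smallest unadjusted p was 0.05005, for RAB27A. The mean was higher after cold in 37 of the genes, or 50.7%, against 56.3% of all genes, and lower in 36. The median change was 0.02, against 0.05 over all genes. The absolute change was below its own standard error (SE) in 52 of 73 genes. The median absolute change was 0.195 and the median SE 0.335, against 0.192 and 0.323 over all genes.

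The larger differences of the list all ran towards lower values after cold. A mean at least 1.5-fold lower was seen in 10 of the 73, or 13.7%, against 6.82% of all genes, and a mean at least 1.5-fold higher in 0 of the 73, against 0.142% of all genes. The 10 were RAB27A, RAB8B, SNX10, SNX2, SNX6, SNX24, STX7, STX2, STX17 and VAMP7. This count shifted most without array 2, 3 or 5. Without array 3 only SNX24 was still at least 1.5-fold lower, or 1.37% of the list against 0.679% of all genes. Without array 2 there were 22 such genes, 30.1% against 18.5%, and without array 5 there were 4, 5.48% against 7.92%. Without array 1 there were 9, 12.3% against 8.27%, without array 4 there were 13, 17.8% against 9.09%, and without array 6 there were 9, 12.3% against 6.39%. After median centring of the arrays there were 6, 8.22% against 5.71%. Without the dimmest 25% of probe sets, which held STX17 and SNX24, there were 8 of 61, 13.1% against 6.74%. Groups that did not overlap were rarer. All after-cold values lay below all before-cold values for RAB27A, SNX6 and SNX16, which is 4.11% of the list against a background of 3% of genes. They lay above for RAB31, or 1.37% of the list against 2.02% of genes. In 71 of the 73 genes the change was smaller than the range of the 3 after-cold arrays, the exceptions being SNX24 and STX2. How many of all genes did so was not counted.

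**Figure D1:**
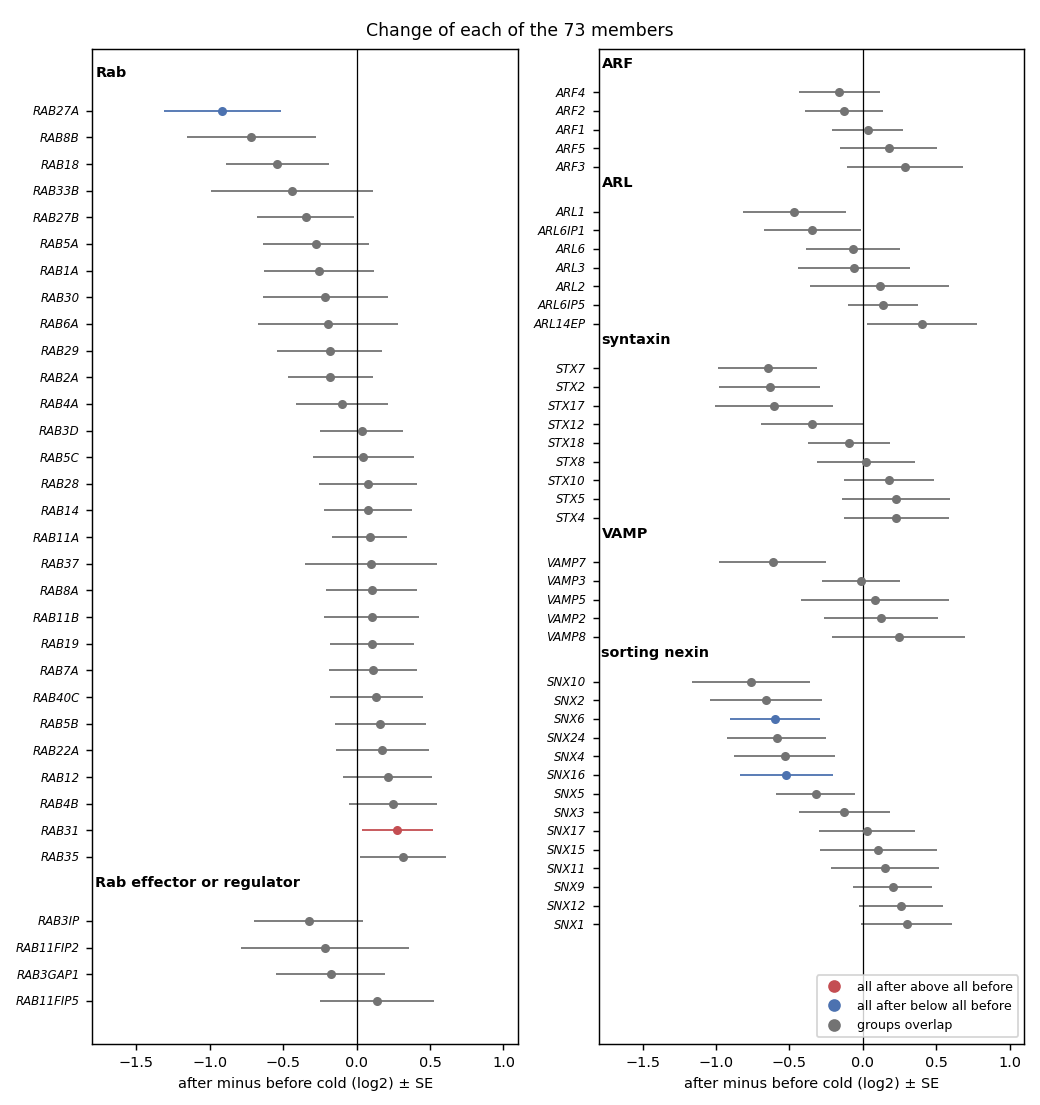
Difference of group means on the log2 scale, after minus before cold, with its SE from limma for each of the 73 genes, grouped by family. Blue marks the 3 genes whose after-cold values all lie below the before-cold values, red marks RAB31, where they all lie above, and most intervals of 1 SE cross 0.

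Among Rab GTPases of secretory granules, RAB27A had the lowest change of the list. RAB27A docks lysosome-related granules at the plasma membrane, and its loss in humans causes Griscelli syndrome, in which cytotoxic lymphocytes fail to release their granules. It was at 10.24, 10.84 and 9.29 after cold (arrays 1, 2 and 3), against 10.86, 11.27 and 10.98 before cold (arrays 4, 5 and 6). The groups were separated by only 0.02, the gap between array 2 and array 4, and array 3 stood far below the rest. The means were 10.12 ± 0.78 after and 11.04 ± 0.21 before (SD, n = 3 each), a difference of -0.91 ± 0.40 (SE), or 1.89-fold lower, with an adjusted p of 1.00 in limma. A further probe set of RAB27A differed by -0.74 ± 0.40. Without array 3 the change was -0.50, and without array 2 it was -1.27, with an unadjusted p of 0.00434 and an adjusted p of at least 0.270 for every gene of the list.

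The other granule Rabs lay closer to 0. RAB27B, the relative of RAB27A, differed by -0.35 ± 0.33, with array 2 at 5.74 the lowest and array 5 at 6.85 the highest. RAB3D, which acts on secretory granules of exocrine and haematopoietic cells, differed by 0.03 ± 0.28, and RAB37, found on mast cell granules in mouse, by 0.10 ± 0.45. For these 3 genes the groups overlapped.

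**Figure D2:**
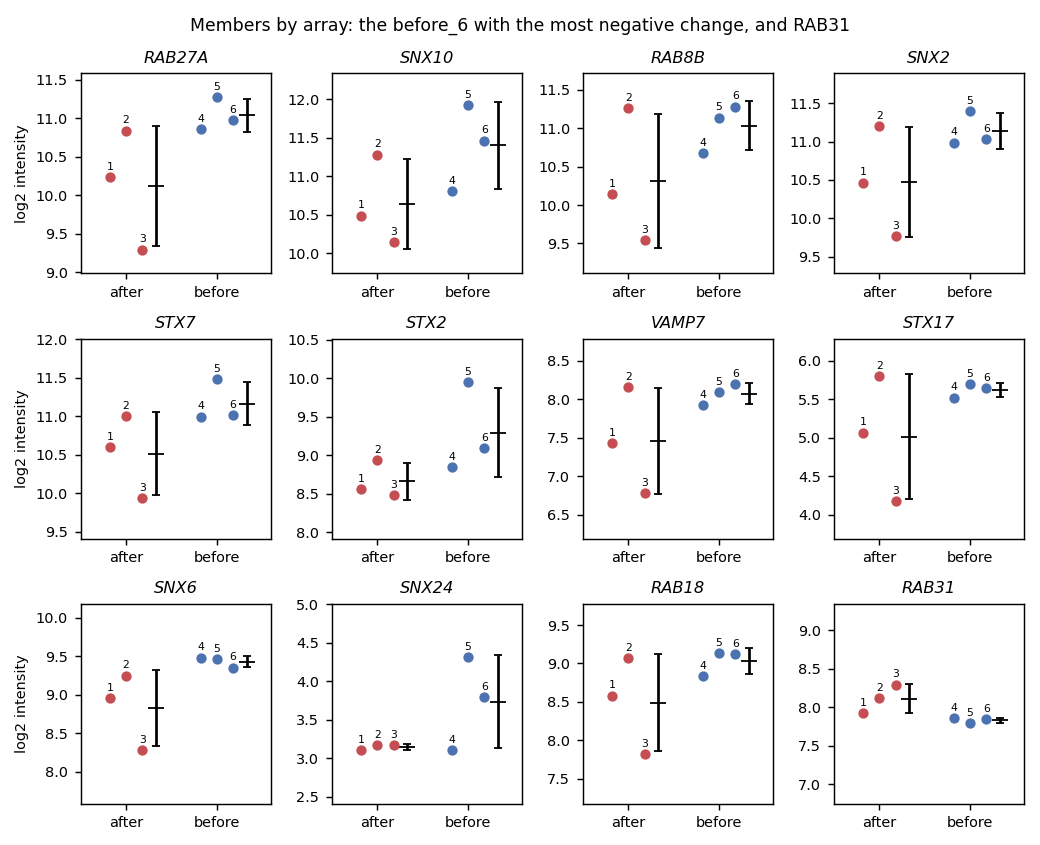
Log2 intensity on each array for the 11 genes with the most negative change and for RAB31, with after-cold arrays in red and before-cold arrays in blue. Digits are array labels, black bars the mean ± SD of 3 arrays, and all panels span the same number of log2 units. Array 3 is the lowest point in 10 of the 11 genes with a lower mean, the exception being SNX24.

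Of 7 Rab genes of transport between endoplasmic reticulum (ER) and Golgi, 6 had a lower mean after cold, against 2771 of all 6337 genes. The median change of the 7 was -0.21, and 0 passed the test. RAB18, a Rab of the ER and of lipid droplets, was at 8.58, 9.07 and 7.82 after cold, against 8.84, 9.13 and 9.12 before. Arrays 1 and 3 were below every before-cold array and array 2 was among them, giving a difference of -0.54 ± 0.35. RAB1A, which carries ER vesicles to the Golgi, differed by -0.26 ± 0.37, RAB2A by -0.18 ± 0.29 and RAB6A, a Rab of retrograde Golgi traffic, by -0.20 ± 0.48. For these 3 genes arrays 2 and 6 were both the highest, for example 9.19 and 9.04 for RAB6A, where the other 4 arrays lay between 7.52 and 8.08. RAB33B, a Golgi Rab, differed by -0.44 ± 0.55 with the same highest arrays, and RAB30 by -0.21 ± 0.43. RAB19 was the gene of the group with a higher mean, by 0.10 ± 0.28.

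In the early endosome group, the mean was higher after cold in 4 of 5 genes, against 56.3% of all genes, and the median change was 0.16. RAB31, which carries cargo between the Golgi and endosomes, was at 7.92, 8.12 and 8.29 after cold, against 7.86, 7.80 and 7.84 before. All 3 after-cold arrays were above the before-cold arrays, though array 1 was only 0.06 above array 4. The means were 8.11 ± 0.19 and 7.83 ± 0.03 (SD, n = 3 each), a difference of 0.28 ± 0.24 (SE) with an adjusted p of 1.00 in limma. The difference was 0.11 with array weights, which give arrays that vary more a smaller part in the fit, and 0.19 without array 3. RAB22A, its near relative, differed by 0.17 ± 0.32. RAB5A, RAB5B and RAB5C, which direct fusion of early endosomes, differed by -0.28 ± 0.36, 0.16 ± 0.31 and 0.05 ± 0.34. Without array 3 the change was -0.07 for RAB5B and -0.21 for RAB5C, and without array 5 it was -0.09 for RAB22A.

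Rab genes of recycling and delivery to the surface numbered 9, of which 7 had a higher mean, against 56.3% of all genes, and 2 a lower mean. Their median change was 0.10. RAB8B, which moves cargo to the plasma membrane, ran the other way. It was at 10.14, 11.26 and 9.54 after cold, against 10.67, 11.14 and 11.28 before. Arrays 1 and 3 were below all before-cold arrays, while array 2 was just under array 6, the highest. The difference was -0.72 ± 0.44, or 1.64-fold lower, and the other RAB8B probe set gave -0.56 ± 0.33. It was -0.33 without array 3 and -1.19 without array 2.

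The remaining recycling Rabs had small differences. RAB11A and RAB11B, the Rabs of the recycling endosome, differed by 0.09 ± 0.25 and 0.10 ± 0.32. RAB35, which returns receptors from endosomes to the surface, had the most positive change of the group, at 0.32 ± 0.30, and 0.30 ± 0.30 in its other probe set. RAB4B differed by 0.25 ± 0.30, RAB12 by 0.21 ± 0.30, RAB14 by 0.08 ± 0.30 and RAB4A by -0.10 ± 0.31. RAB8A differed by 0.10 ± 0.31.

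Late endosomes and lysosomes were represented by RAB7A, which drives endosomes to mature and fuse with lysosomes, at 0.11 ± 0.30, and RAB29, at -0.18 ± 0.36. The 2 probe sets of RAB7A gave changes of 0.11 and 0.17. RAB28 and RAB40C, which belong to none of the routes above, differed by 0.08 ± 0.33 and 0.13 ± 0.31. Of the regulators, RAB3IP, an exchange factor that activates RAB8, differed by -0.33 ± 0.37 and RAB3GAP1, a subunit of a complex that acts on RAB3 and RAB18, by -0.18 ± 0.37. RAB11FIP2 and RAB11FIP5, effectors that link RAB11 to motors and membranes, differed by -0.22 ± 0.57 and 0.14 ± 0.39.

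RAB11FIP2 showed how far arrays of a single group could part. It was at 5.66, 7.16 and 5.13 after cold, against 5.79, 5.72 and 7.08 before. Each group thus held an array more than 1 unit above its fellows, and these were arrays 2 and 6.

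ARF proteins recruit coats to the Golgi, and the changes of their 5 genes lay between -0.16 and 0.29, the narrowest range of the families. ARF1, which recruits the COPI coat, was at 11.78, 11.95 and 11.95 after cold, against 12.03, 11.74 and 11.81 before. The values interleaved, with a difference of 0.03 ± 0.24. A dimmer probe set of ARF1 gave 0.36 ± 0.25, the widest gap between probe sets of a gene here. In that probe set all after-cold values lay above all before-cold values. With array weights the ARF1 change turned negative, at -0.16. ARF4 differed by -0.16 ± 0.27, ARF2 by -0.13 ± 0.27, ARF5 by 0.17 ± 0.33 and ARF3 by 0.29 ± 0.39.

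Of the ARL genes, ARL1, which brings tethering proteins to the trans-Golgi, was at 8.56, 9.11 and 8.04 after cold, against 8.63, 9.37 and 9.11 before. Array 1 and array 3 were the lowest, and the difference was -0.47 ± 0.35. ARL6IP1, a protein that shapes ER tubules, differed by -0.34 ± 0.33, with array 3 at 11.02 and the other 5 arrays between 11.82 and 12.15. ARL3 and ARL6, which serve cilia, differed by -0.06 ± 0.38 and -0.07 ± 0.32. ARL2, which acts in tubulin folding, differed by 0.11 ± 0.47 and ARL6IP5 by 0.14 ± 0.24.

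ARL14EP had the most positive change of the 73 genes. Its product is known in human cells as a partner of ARL14, a GTPase that affects the movement of MHC class II vesicles. It was at 11.09, 9.95 and 11.15 after cold, against 10.41, 10.56 and 10.01 before. Arrays 1 and 3 were above every before-cold array, and array 2 was below them all. The difference was 0.41 ± 0.38, or 1.32-fold higher, with an adjusted p of 1.00 in limma. It was 0.80 without array 2, 0.20 without array 3, 0.23 without array 1 and 0.25 without array 6.

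Syntaxins of endosomes, lysosomes and autophagosomes had a lower mean in 3 of 4 genes, with a median change of -0.48. STX7, which serves fusion of late endosomes with lysosomes, was at 10.61, 11.00 and 9.94 after cold, against 11.00, 11.48 and 11.01 before. Array 2 and array 4 were level to 2 decimals, and all other after-cold values were lower than all before-cold values. The difference was -0.65 ± 0.34, or 1.57-fold lower. STX17, which fuses autophagosomes with lysosomes, differed by -0.60 ± 0.40, with array 3 at 4.18 and the others between 5.07 and 5.81. The STX17 probe set was among the dimmest 25%. STX12, a syntaxin of recycling endosomes, differed by -0.35 ± 0.35, but its dimmer probe set by -0.09 ± 0.34. STX8, a partner of STX7 in endosome fusion, differed by 0.02 ± 0.34.

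The other 5 syntaxins, of the plasma membrane, the Golgi and the ER, had changes of both signs. STX2, a plasma membrane syntaxin, was at 8.56, 8.94 and 8.48 after cold, against 8.84, 9.95 and 9.09 before. Array 5 stood alone at the top, and the difference of -0.63 ± 0.34 became -0.31 without that array. STX4, which serves secretion at the plasma membrane, differed by 0.23 ± 0.36, the Golgi syntaxin STX5 by 0.23 ± 0.37, STX10 by 0.18 ± 0.31 and STX18 of the ER by -0.10 ± 0.28.

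Of the VAMPs, VAMP7, a SNARE of lysosomes and of granule release, was at 7.44, 8.16 and 6.79 after cold, against 7.93, 8.10 and 8.20 before. Arrays 1 and 3 were below the before-cold arrays and array 2 was within them, giving -0.61 ± 0.36. VAMP8, which serves exocytosis of granules and fusion of autophagosomes, had a mean difference of the other sign, 0.25 ± 0.45. It was at 9.89, 9.31 and 10.64 after cold, against 9.54, 10.47 and 9.11 before. The values covered 1.34 units after cold and 1.36 before, with the groups interleaved. VAMP2, VAMP3 and VAMP5 differed by 0.13 ± 0.39, -0.01 ± 0.27 and 0.08 ± 0.50.

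Among sorting nexins, 8 of 14 had a lower mean after cold, the median change was -0.22, and 6 were lower by at least 0.5. Sorting nexins with a BAR domain, which bends endosome membranes into tubules, had a median of -0.43. In this subgroup SNX2, a partner of the retromer complex in retrieving receptors to the Golgi, was at 10.46, 11.20 and 9.77 after cold, against 10.98, 11.40 and 11.03 before. Array 2 was the only after-cold array within the before-cold range. The difference was -0.66 ± 0.38, or 1.58-fold lower, and -0.30 without array 3.

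SNX6 and SNX5 pair with SNX1 and SNX2 on retrieval tubules. SNX6 was at 8.96, 9.25 and 8.29 after cold, against 9.48, 9.46 and 9.35 before. The before-cold arrays lay within 0.13 of each other and above every after-cold array. The means were 8.83 ± 0.49 and 9.43 ± 0.07 (SD, n = 3 each), a difference of -0.60 ± 0.31 (SE), which was -0.33 without array 3. SNX5 differed by -0.32 ± 0.27. SNX4, which recycles the transferrin receptor, differed by -0.53 ± 0.35. SNX1 differed by 0.30 ± 0.31 and SNX9, a partner of dynamin in endocytosis, by 0.20 ± 0.27.

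SNX10, which is required for osteoclast function in mouse and human, had the lowest change among sorting nexins. It was at 10.49, 11.28 and 10.15 after cold, against 10.81, 11.93 and 11.46 before. Arrays 1 and 3 lay below all before-cold arrays, and array 2 lay above array 4. The difference was -0.76 ± 0.40, or 1.70-fold lower, and the other SNX10 probe set gave -0.92 ± 0.48. It was -0.50 without array 5 and -0.52 without array 3.

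SNX16, a sorting nexin of late endosomes, was at 6.16, 6.06 and 5.17 after cold, against 6.32, 6.28 and 6.35 before. The groups did not overlap, and the before-cold values again lay close together, but the probe set was among the dimmest 25%. The difference was -0.52 ± 0.32, and -0.21 without array 3. SNX24 was at 3.10, 3.17 and 3.17 after cold, against 3.10, 4.31 and 3.79 before, so its difference of -0.59 ± 0.34 came from arrays 5 and 6 at the dim end of the scale. SNX3, which carries cargo from endosomes to the Golgi, differed by -0.13 ± 0.31, SNX17, an adaptor for recycling of lipoprotein receptors and integrins, by 0.03 ± 0.33, and SNX12 by 0.26 ± 0.29. SNX11 and SNX15 differed by 0.15 ± 0.37 and 0.11 ± 0.40.

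The after-minus-before difference was compared within 9 pairs of close relatives, which were chosen by name after values had been seen, and in 5 of them the changes had opposite signs. For SNX1 and SNX2 the changes stood 0.96 apart, 0.30 against -0.66, and an exact permutation test, two-sided, gave p = 0.30 (adjusted over the 9 pairs, 0.750). For RAB8A and RAB8B they stood 0.82 apart, 0.10 against -0.72 (exact permutation p = 0.40, adjusted 0.750). For RAB27A and RAB27B they stood -0.57 apart (exact permutation p = 0.50, adjusted 0.750), and for RAB5A and RAB5B -0.44 (exact permutation p = 0.50, adjusted 0.750). SNX5 and SNX6 stood 0.28 apart without overlap of the groups (exact permutation p = 0.10, adjusted 0.750). An exact test of 3 against 3 arrays cannot give a p below 0.1, so no pair could pass 0.05. The remaining 4 pairs gave an exact permutation p between 0.5 and 1.0, with RAB11A and RAB11B the closest, -0.02 apart.

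**Figure D3:**
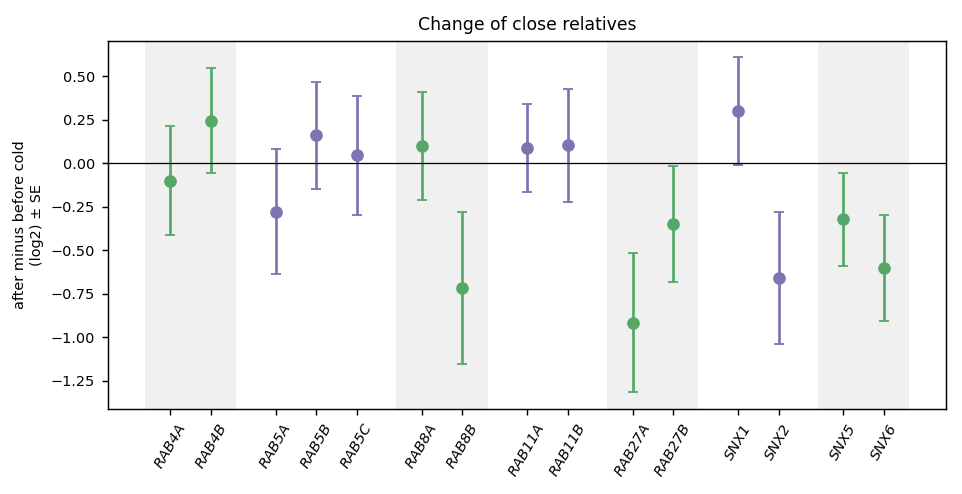
Change after minus before cold on the log2 scale with its SE from limma for close relatives, with alternate shading per set. SNX1 and SNX2, and RAB8A and RAB8B, lie on opposite sides of 0, while RAB11A and RAB11B lie together near 0.1.

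The spread among arrays of a group exceeded the difference between groups for most of the list. After-cold arrays 2 and 3 differed by at least 2-fold in 31 of the 73 genes, or 42.5%, against 33.55% of all genes, and array 2 was the higher in 21 of these. Arrays 3 and 6 differed that far in 34 of the genes, or 46.6%, against 34.65% of all genes. Arrays 2 and 6, from opposite groups, did so in 0, against 0.0473% of all genes. Their median absolute difference was 0.11, against 0.10 over all genes. Arrays 1 and 4, also from opposite groups, had a median absolute difference of 0.19, as over all genes. Again 0 genes of the list lay beyond 2-fold, against 0.647% of all genes. Array 3 held the lowest value of 31 genes, or 42.5%, against 32.5% of all genes, and the highest of 22, or 30.1%, against 36.4%.

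The genes fell into opposite patterns over the arrays. Arrays 2 and 6 were both the highest for 20 genes, 27.4% of the list against 25.5% of all genes, among them RAB1A, RAB2A, RAB5A, RAB6A, RAB8B, RAB14, ARF4, VAMP3, VAMP7 and SNX3. They were both the lowest for 26 genes, 35.6% against 36.9% of all genes, among them RAB4B, RAB5C, RAB7A, RAB8A, RAB11B, ARF3, STX4, STX5, VAMP5, VAMP8 and SNX1. These shares are close to those over all genes, so the patterns are not particular to trafficking genes. Several relatives stood in opposite patterns, as RAB5A and RAB5C or RAB8B and RAB8A did. The median deviation of the 73 genes from their own means was -0.05, 0.12 and -0.18 on arrays 1, 2 and 3 after cold, against 0.02, 0.15 and 0.07 on arrays 4, 5 and 6 before cold. Over all genes it was 0.04, -0.03 and 0.03 on arrays 1, 2 and 3, and 0.04, 0.05 and -0.06 on arrays 4, 5 and 6.

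**Figure D4:**
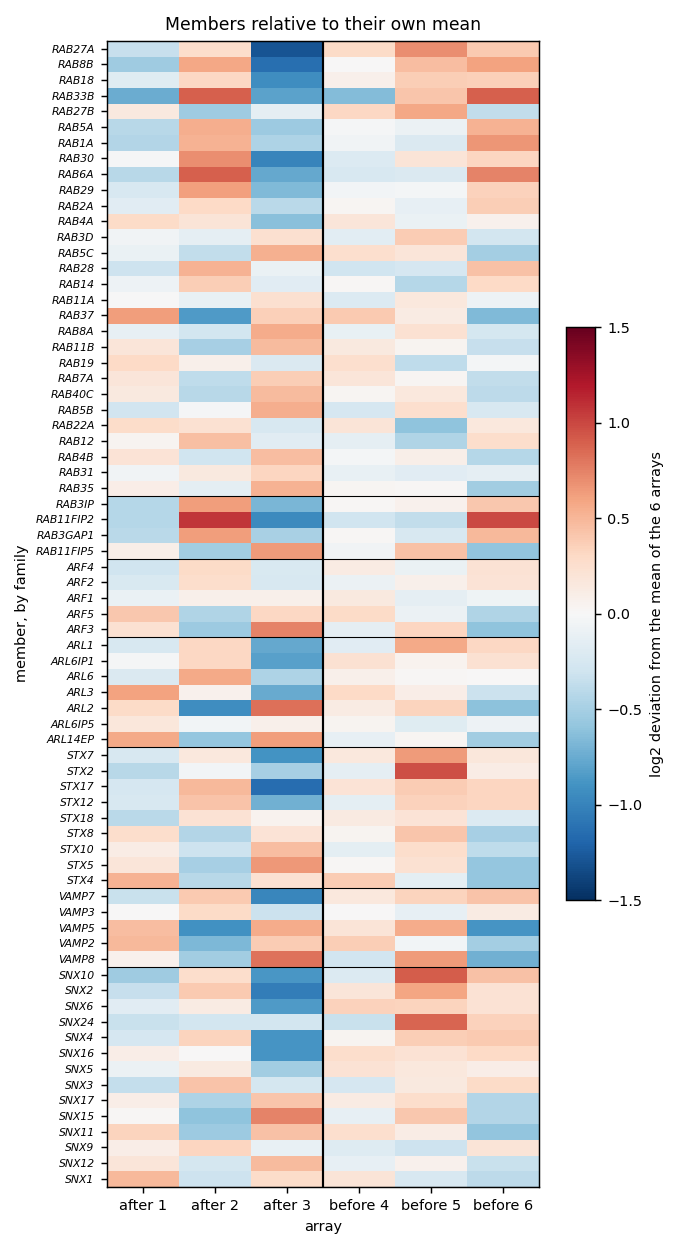
Log2 deviation of each of the 73 genes (rows, by family) from its mean over the 6 arrays (columns, after cold left of the line and before cold right of it). Arrays 2 and 6 share their colours in most rows, and array 3 often shows the opposite colour.

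Leaving out single arrays moved many of the larger changes, though not all in the same way. Without array 3 the changes of RAB8B, SNX2, SNX6 and VAMP7 shrank to between -0.33 and -0.27, and without array 2 they grew to between -1.19 and -0.81. SNX24 hardly moved, at -0.60 without array 3 and also without array 2, and was nearest to 0 without array 5, at -0.30. STX2 was at -0.55 without array 3 and likewise nearest to 0 without array 5. Without array 2, 14 of the 73 genes had an unadjusted p under 0.05 in limma, or 19.2%, against 14.0% of all probe sets, and 0 an adjusted p under 0.05. Of the 14, 13 were lower and ARL14EP higher after cold.

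**Figure D5:**
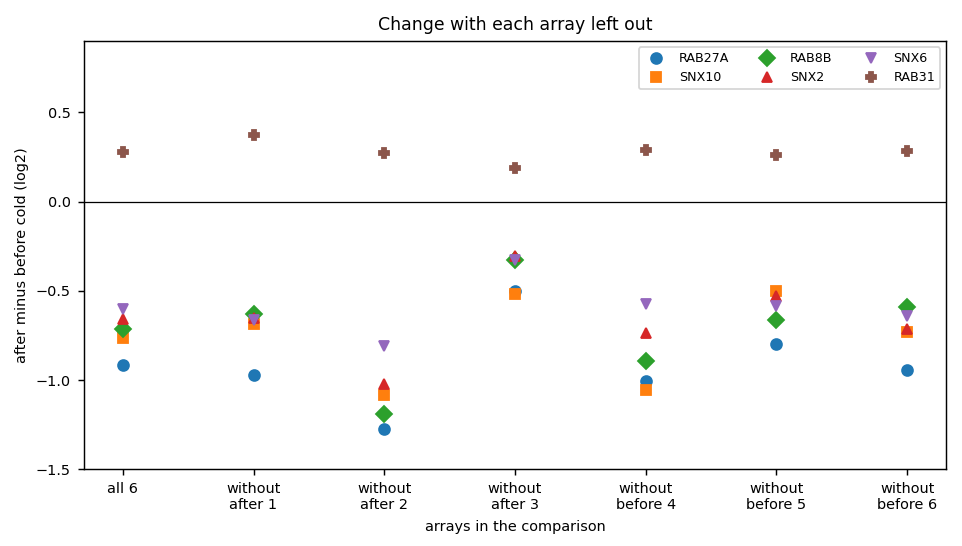
Change after minus before cold on the log2 scale for RAB27A, SNX10, RAB8B, SNX2, SNX6 and RAB31, with all 6 arrays and with each array left out. The 5 genes with a lower mean stay below 0 throughout, come closest to 0 without array 3 or, for SNX10, array 5, and lie farthest from it without array 2, while RAB31 stays between 0.19 and 0.37.

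Other genes of the same pathways, taken from 4 lists of partners, gave 0 calls at an adjusted p under 0.05 in limma, and at an unadjusted p under 0.05 also 0 in each list. In the list of Rab lipidation, recycling, activation and effector genes the mean was higher after cold in 18 of 26 measured genes and the median change was 0.11. TBC1D23, a Golgi protein that captures endosome-derived vesicles, differed by -0.76 ± 0.39, RABGEF1, an exchange factor of RAB5, by -0.46 ± 0.31, TBC1D1 by 0.33 ± 0.29 and TBC1D20, which inactivates RAB1, by 0.26 ± 0.25. TBC1D20 was the only gene of the 26 whose groups did not overlap, against 5.02% of all genes. Of the ARF regulators and effectors 16 of 22 had a higher mean, with a median of 0.18. Among them the adaptor GGA3 differed by 0.26 ± 0.24 without overlap, the exchange factor IQSEC1 by 0.38 ± 0.29, ARFIP1 by -0.34 ± 0.32 and ARFGAP3 by -0.16 ± 0.36. GGA3 was the only gene of the 22 without overlap.

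The list of other SNAREs and their regulators had 11 of 24 genes with a higher mean and a median of -0.03. The groups overlapped in all 24. SNAP23, the plasma membrane SNARE that pairs with syntaxins in leukocyte granule release, was at 8.83, 10.13 and 8.60 after cold, against 9.80, 9.87 and 10.09 before, a difference of -0.73 ± 0.41. Arrays 1 and 3 were low and array 2 was the highest of all. STXBP3, a syntaxin-binding protein, differed by -0.68 ± 0.38. UNC13D, which primes cytotoxic granules docked by RAB27A, differed by 0.28 ± 0.32 and VAPA by 0.27 ± 0.27.

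Retromer and tethering genes had 15 of 35 with a higher mean and a median of -0.06. VPS35, the core subunit of retromer, which acts with SNX1, SNX2, SNX5 and SNX6, was at 8.65, 9.48 and 8.15 after cold, against 9.45, 9.78 and 9.52 before. Array 2 was 0.02 above array 4, and arrays 1 and 3 were below all others. The difference was -0.83 ± 0.36, with an adjusted p of 1.00 in limma. Other VPS genes listed with it went both ways. VPS26A differed by -0.49 ± 0.44, VPS29 by -0.08 ± 0.36, VPS26B by 0.17 ± 0.33 and VPS26C by 0.08 ± 0.30. The Golgi tether GOLGA5 differed by -0.76 ± 0.40 and EXOC2, a subunit of the exocyst tether, by 0.26 ± 0.24, both without overlap of the groups. TRAPPC2, named after its values were seen, was the other gene of this list without overlap, at -0.49 ± 0.32. Of the 35 genes, 2 were thus lower and 1 higher without overlap, against 3% and 2.02% of all genes. The exocyst genes went both ways, with 3 of 7 higher and 4 lower, a median of -0.15, and changes from -0.85 (EXOC1) to 0.35 (EXOC3).

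Of the general leukocyte markers all 6 were measured, with no value below 9.91, and their summed intensity was 25466 to 28280 after cold and 24193 to 28562 before. Fewer cells of a type and less RNA per cell cannot be told apart in these samples. T cell markers (8 of 8 measured) summed to 12043 to 15758 after cold and 11038 to 17551 before, monocyte markers (4 of 5) to 976 to 1791 after and 934 to 1876 before, and neutrophil markers (3 of 6) to 18562 to 24673 after and 15917 to 24276 before. B cell markers (3 of 6) summed to 3840 to 5031 after cold and 4258 to 5021 before, eosinophil markers (2 of 5) to 470 to 694 after and 685 to 1006 before, red cell markers (3 of 8) to 5944 to 6520 after and 5141 to 5956 before, and platelet markers (2 of 6) to 7583 to 7855 after and 7723 to 10324 before. On array 3, where RAB27A was lowest, the eosinophil and platelet sums were the lowest of the 6 arrays and the neutrophil and red cell sums the highest. A sum leans on its brightest marker. By the median deviation of the markers from their own means, array 3 was still lowest for eosinophils (-0.78) and highest for neutrophils (0.37). By that measure array 1 was instead lowest for platelets (-0.24, against -0.16 on array 3) and highest for red cells (0.36, against 0.04). On array 5, where RAB27A and SNX10 were highest, the platelet and monocyte sums were the highest, the leukocyte and T cell sums were the lowest, and the neutrophil sum of 24276 was close to the 24673 of array 3. The part of cell mixture in these values was not tested.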

How the data were processed

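Per the labels, total RNA of white blood cells was labelled with biotin and hybridised to single-colour Affymetrix arrays. The authors deposited linear intensities, 1 value per probe set and array. The submitters' processing notes name GCOS and RMA but give no version. Array medians still ran from 7.25 to 7.49 on the log2 scale. Log2 was taken without further normalization, pseudocount or filter. The number of arrays limits the precision, and no detection call was used.

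Gene names came from the platform annotation, where 8125 probe sets have 1 symbol, 56 several and 4582 none. All 73 genes matched a current RefSeq gene of the same symbol. The fit was made over 12763 probe sets with limma (3.58.1, under R 4.3.3), two-sided, with Benjamini-Hochberg adjustment, no block, and a threshold of 0.05. The code was tested on simulated data. The genes and lists were chosen with earlier results of these data known. The naming rule took genes with non-overlapping groups and the smallest p (up to 12 per direction), the largest change in each role, the smallest in each family, 27 measured genes of 32 set by function, genes whose probe sets differ in sign by over 0.3 (none met this), and up to 2 genes per direction of each partner list. The text names the other members too. Alternatives covered dim filters, the variance trend, array weights, normalization, probe set choice, left-out arrays and blocks for the 6 possible matchings of samples.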

Additional observations from a re-analysis of the deposited data

How the results depend on the processing

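With limma, 0 of the 73 genes had an adjusted p under 0.05 in the comparison as reported and in each of 22 alternatives. Genes with an unadjusted p under 0.05 numbered 0 as reported (0%, against 0.494% of all probe sets). They numbered 1, RAB27A each time, without the dimmest 25% of probe sets (1.64%, against 0.512%) or the dimmest 50% (1.96%, against 0.423%), with an intensity trend in the variance (1.37%, against 0.548%), and with median centring, quantile or cyclic loess normalization (1.37%, against 0.854%, 0.784% and 0.799%). They numbered 12 with array weights estimated gene by gene (16.4%, against 15.1%), since limma's default estimate stopped before its tolerance, and 12 without arrays 2 and 6 together, a setting chosen after the data were seen (16.4%, against 9.67%). Leaving out each array gave 0 to 14, with 14 without array 2 (19.2%, against 14.0%) and 2 without array 4 (2.74%, against 0.212%). A replicate block gave 7 for the matching 1-4, 2-6, 3-5 (9.59%, against 9.15%), 5 for 1-5, 2-6, 3-4 (6.85%, against 5.14%), 1 for 1-6, 2-5, 3-4 (1.37%, against 0.360%) and 0 for the other matchings, and the labels do not name the true pairs.

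Genes with non-overlapping groups numbered 4 as reported (5.48%, against 5.02% of all genes) and 43 without arrays 2 and 6 (58.9%, against 47.9%). They numbered 6 with median centring (8.22%, against 5.52%), 4 with quantile normalization (5.48%, against 5.43%) and 2 with cyclic loess normalization (2.74%, against 5.62%). They numbered 3 without the dimmest 25% of probe sets (4.92%, against 4.70%). With the mean of all probe sets or the probe set with the lowest mean they numbered 5 (6.85%, against 5.03% and 4.99%). On leaving out each array they numbered 4 to 40, where fewer arrays make separation easier by construction, with 40 without array 2 (54.8%, against 42.8%), 11 without array 4 (15.1%, against 10.3%) and 7 without array 6 (9.59%, against 10.9%). Genes at least 1.5-fold lower after cold numbered 10 as reported, 6 with median centring, quantile or cyclic loess normalization (8.22%, against 5.71%, 5.02% and 5.60% of all genes), 4 with array weights (5.48%, against 6.5%), and between 1 and 22 when single arrays were left out. The median change of 0.02 ran from -0.11 (without array 2) to -0.0123 (without array 4) on leaving out each array, and was -0.02 without arrays 2 and 6. In 33 genes, 24 lower and 9 higher after cold, the direction was the same in every alternative run for them. The dim filters, the variance trend and the replicate blocks leave each change as it was, so they could not alter a direction. This count was not set beside a share over all genes. The causes of the shifts between settings were otherwise not tested. No measure of background was used, so what dim signal limits is unknown.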
